A study of Rattus norvegicus with 8 samples.

Results

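The insulin-like growth factor (IGF) genes described here are 10 genes of rat lung: the ligand genes Igf1 and Igf2, the receptor gene Igf1r and the 7 binding protein genes Igfbp1 to Igfbp7. They were chosen by gene symbol from the 32623 genes of the deposited table. Each symbol had 1 row, 9 of the 10 had a value above 0, and those 9 also passed the filter on low counts. Expression was measured by RNA sequencing in 4 lung libraries of rats given monocrotaline (MCT) and 4 lung libraries of control rats. Monocrotaline is a plant alkaloid that injures lung vessels and serves as a model of pulmonary hypertension. The labels give no strain, sex, age, dose or time after treatment, and do not state whether each library stands for its own animal; the p-values then reflect only how these 8 libraries vary, and that variation may be technical.

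IGF1 and IGF2 are small secreted growth factors that act through the receptor tyrosine kinase encoded by Igf1r, which passes the signal on through insulin receptor substrates, PI3K and AKT. The binding proteins hold the ligands in fluid and matrix, prolong their life and keep them from the receptor, and proteases free the ligand by cutting them. In the lung, IGF1 is known as a product of mesenchymal cells and macrophages and as a mitogen for smooth muscle cells and fibroblasts. IGFBP7 stands apart from the others because it binds IGFs weakly and is abundant in vessel walls.

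In MCT lungs the transcripts of Igfbp4, an inhibitory binding protein, were 2.17-fold as abundant as in control lungs, and those of Igf1 were 1.88-fold as abundant. No other member passed the threshold, an adjusted p under 0.05 in edgeR's quasi-likelihood test over all genes, and none was lower at an adjusted or at an unadjusted p under 0.05, in edgeR, DESeq2 or limma. At an unadjusted p under 0.05, 4 members were higher in edgeR and 3 in limma on log2(FPKM + 0.5). In edgeR these were Igf1, Igfbp4, Igf2 (unadjusted p 0.0110) and Igfbp2 (unadjusted p 0.0454). The rise of Igfbp4 passed in every alternative run, whereas that of Igf1 did not pass in 8 of 19. Igfbp1 was not detected in any library. With 2 of 9 tested members called, the share was 22.2%, against 20.5% of all 16715 genes tested, so the family did not hold more calls than the table as a whole. Higher calls made up 11% and lower calls 9.45% of all genes.

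The libraries held about 11.3 to 18.2 M read pairs in the MCT group and 10.9 to 14.8 M in the control group. On the second principal component, which held 15.3% of the variance, MCT 1 (77.2) and control 1 (24.8) lay away from the other libraries (-36.9 to -4.46), and the text gives the result without either or both for each named gene whose call or sign then changed. Of the lung cell markers examined, proliferation genes were higher for 6 of 6, with a median log2 fold change of 2.28 and sums of 64.0 to 80.2 FPKM in MCT libraries and 12.0 to 20.8 FPKM in control libraries. Of 6 alveolar type 2 genes 3 were lower and 1 higher, and they summed to 20351 to 26382 FPKM in MCT libraries and 28316 to 36708 FPKM in control libraries, so the tissue label held. Macrophage markers were higher for 7 of 9 tested genes, with sums of 539 to 964 FPKM in MCT libraries and 247 to 376 FPKM in control libraries, although the alveolar macrophage gene Marco was at 0 to 0.11 FPKM throughout. Fibroblast markers were higher for 4 of 8, with sums of 1176 to 1873 FPKM in MCT libraries and 676 to 895 FPKM in control libraries, and endothelial markers were lower for 3 of 8, with sums of 515 to 656 FPKM in MCT libraries and 794 to 932 FPKM in control libraries. Of 8 smooth muscle and pericyte markers 0 were higher and 1 was lower (Notch3). They summed to 752 to 1185 FPKM in MCT libraries and 723 to 981 FPKM in control libraries. In bulk tissue, more cells of a type and more RNA per cell cannot be told apart.

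The upstream windows of 3 members are shown because they cover the members that were called and the one that was silent. They are the 250 bases before the annotated start on the plus strand of build GRCr8, from RefSeq, in which all 10 members had a window: chr7:24172282-24172531 for Igf1, chr10:84491221-84491470 for Igfbp4 and chr14:86261027-86261276 for Igfbp1. Capitals mark matches, on either strand, to the TATA box TATAAA, the GC box GGGCGG, the CCAAT box, the insulin response core CAAAACA and the forkhead core GTAAACA, which do not overlap each other in these windows.
Igf1: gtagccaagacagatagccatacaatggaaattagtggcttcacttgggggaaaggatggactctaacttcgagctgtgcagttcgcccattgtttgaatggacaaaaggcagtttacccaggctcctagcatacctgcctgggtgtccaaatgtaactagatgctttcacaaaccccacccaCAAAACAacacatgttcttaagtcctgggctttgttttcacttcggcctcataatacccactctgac
Igfbp4: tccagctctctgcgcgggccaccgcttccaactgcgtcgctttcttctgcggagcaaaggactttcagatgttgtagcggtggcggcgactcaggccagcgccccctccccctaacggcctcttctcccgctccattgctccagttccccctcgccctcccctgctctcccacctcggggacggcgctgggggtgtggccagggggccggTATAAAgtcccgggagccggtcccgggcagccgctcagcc
Igfbp1: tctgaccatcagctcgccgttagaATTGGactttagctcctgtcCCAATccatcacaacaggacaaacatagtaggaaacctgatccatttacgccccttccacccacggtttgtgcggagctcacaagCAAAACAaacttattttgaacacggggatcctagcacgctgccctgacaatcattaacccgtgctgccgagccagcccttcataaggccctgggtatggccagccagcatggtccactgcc
The Igfbp4 window held a TATAAA match 40 bases before the start, a motif found in 12.9% of 33469 windows of this length. CAAAACA, the core of the insulin response element through which FOXO factors act on Igfbp1, occurred 121 bases before the start of Igfbp1 and 67 bases before that of Igf1, and in 5.46% of all windows. GTAAACA, a forkhead core present in 3.21% of windows, had no match in these 3, and GGGCGG, present in 30.5%, had none either. The CCAAT box, present in 34%, matched only in Igfbp1 among the 3, in both orientations. A match describes letters in the window and is not evidence of binding.

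Igf1 encodes the main postnatal IGF ligand. The gene (ENSRNOG00000004517) lies on the plus strand of chromosome 7 from 28412198 to 28486609 on Rnor_6.0, the build of the deposited table, with 4 annotated transcripts. Igf1 was at 14.1, 15.6, 11.9 and 11.1 FPKM in MCT 1 to 4 and at 4.34, 8.97, 4.93 and 9.81 FPKM in control 1 to 4 (FPKM, fragments per transcript length and library depth). Every MCT library lay above every control library, but control 2 and control 4 lay well above control 1 and control 3 and close to the lowest MCT library. Means were 13.2 ± 2.06 FPKM in MCT and 7.01 ± 2.78 FPKM in control (SD, n = 4 each). The log2 fold change was 0.91 (SE 0.27, 95% interval 0.30 to 1.52, edgeR adjusted p 0.0432). The call was lost when any of MCT 1 to 4, control 1 or control 3 was left out, when no filter on low counts was used, and when MCT 1 and control 1 were both left out (0.69, adjusted p 0.110). In all 19 alternatives the change stayed positive, at 0.69 to 1.10. The macrophage, fibroblast and proliferation marker sums given above moved the same way, while the smooth muscle and pericyte sum overlapped between groups. The part of these cells in the Igf1 difference was not tested.

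Igf2 encodes the second ligand, which is imprinted and mostly fetal in rodents. The gene (ENSRNOG00000020369) lies on the minus strand of chromosome 1 from 215828102 to 215846911. Its level was low, at 1.71, 1.47, 1.29 and 0.84 FPKM in MCT 1 to 4 and 1.05, 0.43, 0.60 and 0.60 FPKM in control 1 to 4, with MCT 4 below control 1. The log2 fold change was 0.98 (SE 0.31, 95% interval 0.28 to 1.68), an estimate as large as that of Igf1, and the edgeR adjusted p of 0.0526 missed the threshold. In 7 of 19 alternatives it passed, among them DESeq2 (adjusted p 0.0157), the fit without control 1 (1.28, adjusted p 0.0184) and that without MCT 1 and control 1 (1.12, adjusted p 0.0251). On pseudocount scales, which shrink changes of low genes, limma gave 0.65 for log2(FPKM + 0.5) and 0.48 for log2(FPKM + 1), with adjusted p of 0.0669 and 0.0636. The summed ligand level was 12.0 to 17.1 FPKM in MCT libraries and 5.39 to 10.4 FPKM in control libraries, with no overlap. Igf1 supplied most of it, at 8.25 to 13.2 times the Igf2 level in MCT libraries and 4.13 to 20.9 times in control libraries.

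**Figure D1:**
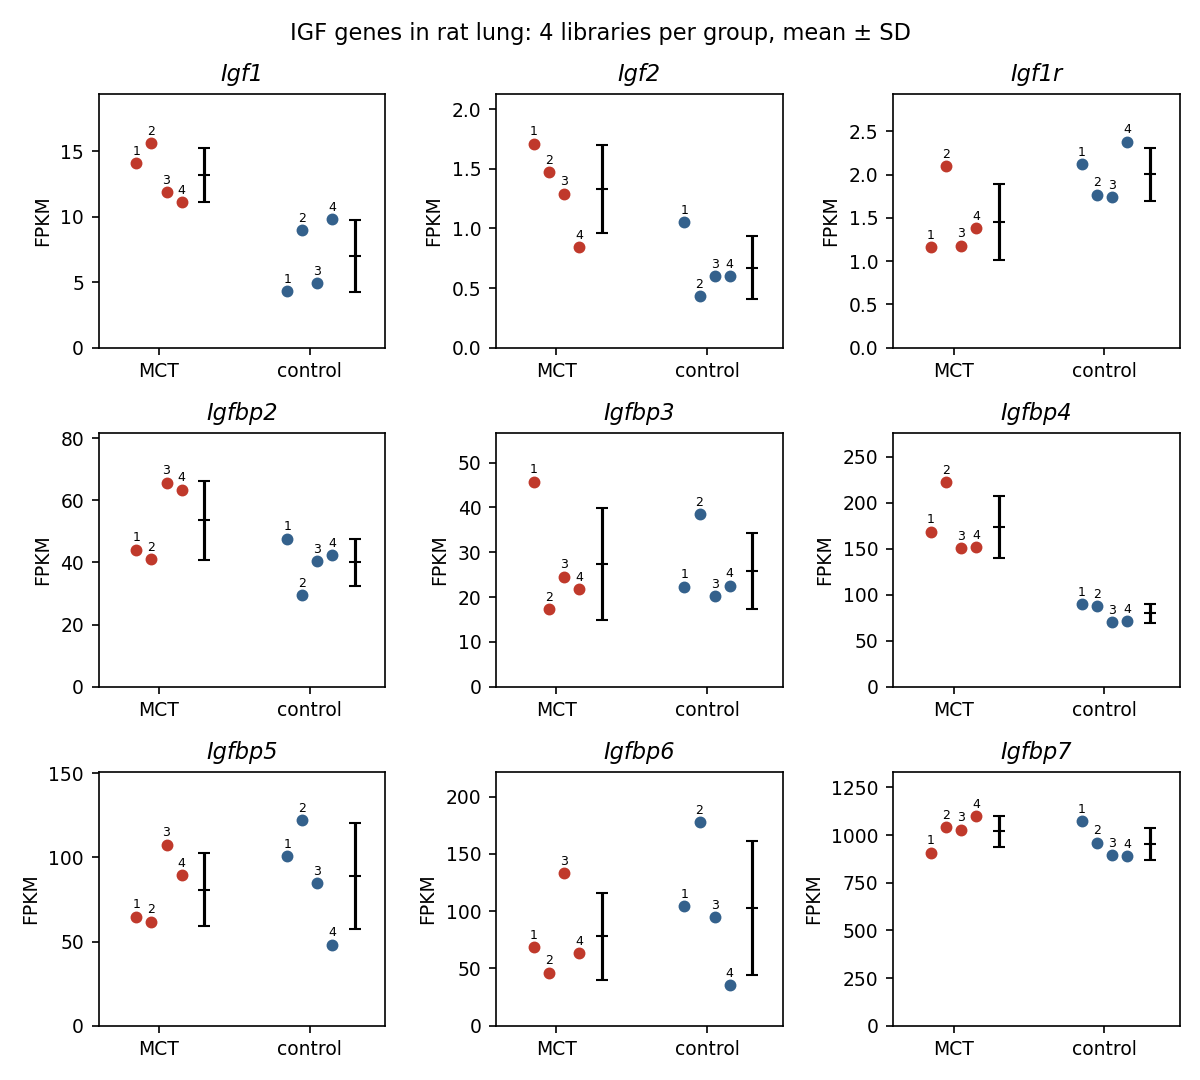
FPKM of the 9 detected members in each library, MCT left and control right; points are libraries with their replicate numbers, bars are mean ± SD of 4. MCT and control points of Igf1 and Igfbp4 do not overlap, and those of the other 7 genes do.

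Igf1r encodes the receptor that both ligands use. The gene (ENSRNOG00000014187) spans chromosome 1 from 128924966 to 129206516 on the plus strand. Igf1r was at 1.16, 2.10, 1.18 and 1.38 FPKM in MCT 1 to 4 and 2.12, 1.77, 1.74 and 2.38 FPKM in control 1 to 4. MCT 1, 3 and 4 lay below all control libraries, while MCT 2 lay among them. The log2 fold change was -0.46 (SE 0.22, 95% interval -0.95 to 0.043, edgeR adjusted p 0.184), and it was -0.69 with an adjusted p of 0.0452 when MCT 2 was left out. The ligand and receptor estimates therefore had opposite signs, and the receptor difference was not past the threshold in the 8 libraries.

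Igfbp4 was the member with the smallest p. IGFBP4 inhibits IGF action and is the classical substrate of the metalloprotease PAPP-A. The gene (ENSRNOG00000010635) lies on the plus strand of chromosome 10 from 86950557 to 86962578 on Rnor_6.0. Its values were 169, 223, 151 and 152 FPKM in MCT 1 to 4 and 89.9, 87.3, 70.4 and 71.0 FPKM in control 1 to 4. The lowest MCT library was well above the highest control library, and both groups were tight apart from MCT 2. Igfbp4 averaged 173 ± 33.9 FPKM in MCT and 79.6 ± 10.4 FPKM in control (SD, n = 4 each). Between groups the log2 fold change was 1.12 (SE 0.15, 95% interval 0.78 to 1.46, edgeR adjusted p 0.00157), which ranked 382 among the p-values of 16715 genes. Across all genes, 13.7% had every MCT library above every control library, as Igf1 and Igfbp4 did, 11.6% had the reverse, and 25.4% had either, against 2 of the 9 tested members. The alternatives gave 0.98 to 1.19, with the lowest value when MCT 2 was left out, and 1.18 without MCT 1 and control 1. Macrophage, fibroblast and proliferation marker sums were also higher in MCT without overlap. Within groups the macrophage sum and Igfbp4 did not order the libraries alike. Both were highest in MCT 2 (macrophage sum 964 FPKM). The macrophage sum was lowest among MCT libraries in MCT 1 (539 FPKM), where Igfbp4 was above MCT 3 and MCT 4. Among control libraries it was highest in control 3 (376 FPKM), where Igfbp4 was lowest (70.4 FPKM, against 71.0 FPKM in control 4). The fibroblast sum was highest in MCT 4 (1873 FPKM) and control 1 (895 FPKM). The smooth muscle and pericyte sum was highest in MCT 2 (1185 FPKM) and control 1 (981 FPKM), as Igfbp4 was, but it overlapped between groups. Of the fibroblast genes, Col1a1, Col3a1, Lum and Dpt were higher. Pdgfra (0.075), Dcn (-0.073), Tcf21 (0.15) and Pdgfrl (0.41, log2 fold changes) were not called. The part of these cells in the Igfbp4 difference was not tested.

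Igfbp7 was by far the most abundant member. The gene (ENSRNOG00000002050), on chromosome 14 from 33010300 to 33070190, was at 908, 1041, 1028 and 1100 FPKM in MCT 1 to 4 and 1073, 960, 894 and 890 FPKM in control 1 to 4. It varied least of all members, by a coefficient of variation of 7.89% in MCT and 8.91% in control. The groups overlapped, with a log2 fold change of 0.092 (SE 0.095, 95% interval -0.12 to 0.31, edgeR adjusted p 0.551), so a change above about 0.31 in size lies outside the interval. Of 8 tested endothelial markers, Tek, Clec14a and Vwf were lower in MCT and 5 were not called. Of those 5, Cdh5 (-0.52), Kdr (-0.32), Erg (-0.31) and Tie1 (-0.25) had log2 fold changes below 0. Only Egfl7 was above 0 (0.21), at 238 FPKM in MCT and 206 FPKM in control.

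Igfbp2 and Igfbp5 are neighbours on chromosome 9, with 5421 bases between their facing 3′ ends. IGFBP2 is a marker of mature alveolar type 1 cells in the mouse, and IGFBP5 binds matrix and can both hold and present IGFs. Igfbp2 was at 44.1, 41.1, 65.7 and 63.4 FPKM in MCT 1 to 4 and 47.7, 29.5, 40.5 and 42.5 FPKM in control 1 to 4. MCT 3 and MCT 4 lay above all control libraries, and MCT 1 and MCT 2 lay among them. Igfbp2 had a log2 fold change of 0.42 (SE 0.18, 95% interval 0.011 to 0.83, edgeR adjusted p 0.138). The 6 alveolar type 1 markers examined, Igfbp2 not among them, all had log2 fold changes below 0, with 1 called lower (Rtkn2). They summed to 2574 to 3112 FPKM in MCT libraries and 3221 to 3567 FPKM in control libraries. Their relation to Igfbp2 was not tested. Igfbp5 was at 64.8, 61.8, 108 and 89.5 FPKM in MCT 1 to 4 and 101, 122, 84.8 and 48.1 FPKM in control 1 to 4. All its MCT libraries lay within the control range, with a log2 fold change of -0.15 (SE 0.29, 95% interval -0.81 to 0.51, edgeR adjusted p 0.769). These adjacent genes did not order the libraries alike: control 2 was lowest for Igfbp2 and highest for Igfbp5.

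Igfbp3 and Igfbp1 form the other neighbouring set, on chromosome 14, with 3861 bases between them. IGFBP3 is the main carrier of IGFs in serum. Igfbp3 was at 45.7, 17.4, 24.6 and 21.8 FPKM in MCT 1 to 4 and 22.3, 38.5, 20.2 and 22.5 FPKM in control 1 to 4. A single library stood high in each group, MCT 1 and control 2, and the other 6 lay between 17.4 and 24.6 FPKM. The fold change on the log2 scale was 0.077 (SE 0.34, edgeR adjusted p 0.901), and it turned to -0.30 without MCT 1 and -0.37 without MCT 1 and control 1. Igfbp1, the insulin-regulated binding protein of liver, had 0 reads in all 8 libraries, which allows up to 0.165 to 0.265 CPM in MCT libraries and 0.203 to 0.276 CPM in control libraries (CPM, counts scaled to the library total) if 3 read pairs are taken as the limit. These limits cover counting error only. The hepatocyte gene Alb was at 0 to 0.08 FPKM in MCT libraries and 0 to 0.02 FPKM in control libraries. Of the other hepatocyte markers, Apoa1, Ttr, Fgb and Tat were at 1.22 FPKM or less in every library. Cyp2e1, however, was at 8.60 to 32.7 FPKM in MCT libraries and 23.9 to 35.0 FPKM in control libraries.

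Igfbp6 was the most variable detected member. IGFBP6 binds IGF2 in preference to IGF1. Igfbp6 was at 68.8, 46.3, 133 and 63.2 FPKM in MCT 1 to 4 and 104, 178, 94.97 and 35.3 FPKM in control 1 to 4. The highest control library was 5.04 times the lowest, a wider spread than the difference between the means of 77.9 FPKM in MCT and 103 FPKM in control. Its log2 fold change was -0.42 (SE 0.50, 95% interval -1.58 to 0.73, edgeR adjusted p 0.613), so these libraries could not resolve a change of this size. Control 4, lowest for Igfbp6, was also lowest for Igfbp5 and among control libraries for the mesothelial gene Upk3b (12.2 FPKM, against 36.0 to 67.3 FPKM in control 1 to 3). Among MCT libraries, however, MCT 4 had the highest Upk3b (96.6 FPKM) and not the highest Igfbp6. None of the 6 mesothelial markers was called, their sum was 444 to 678 FPKM in MCT libraries and 435 to 657 FPKM in control libraries, lowest in control 4, and none was at 0. Their part in the spread of Igfbp6 was not tested.

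**Figure D2:**
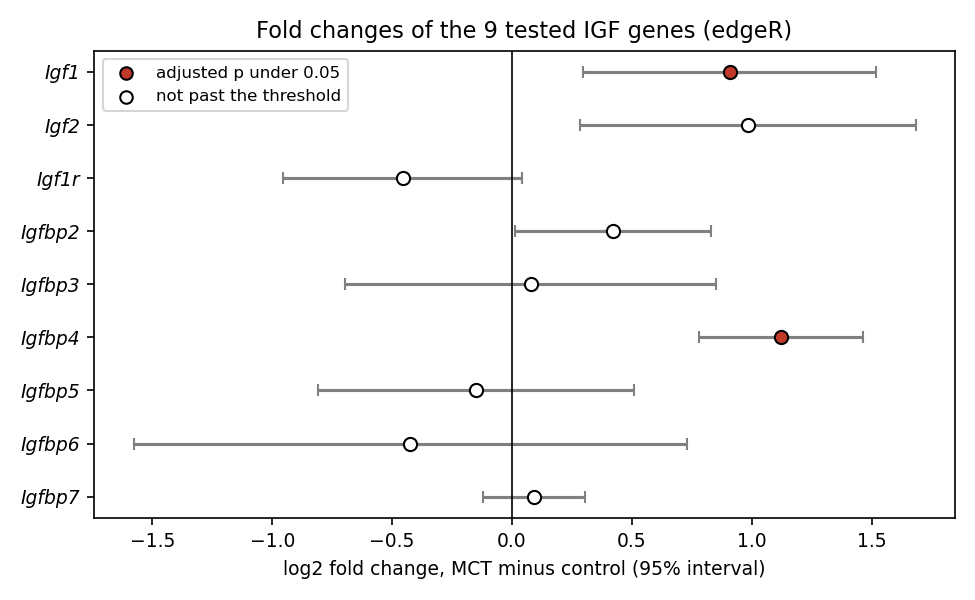
Log2 fold change of each tested member, MCT minus control, with its 95% interval; filled points passed an adjusted p under 0.05. Igf1 (0.91) and Igfbp4 (1.12) are filled, Igf2 (0.98) is as large but open, and the interval of Igfbp7 is the narrowest.

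Levels per transcript length allow the members to be ranked. By mean FPKM in MCT lungs the order was Igfbp7 (1019), Igfbp4 (173), Igfbp5 (80.9), Igfbp6 (77.9), Igfbp2 (53.6), Igfbp3 (27.4), Igf1 (13.2), Igf1r (1.46) and Igf2 (1.33). In control lungs it was Igfbp7 (955), Igfbp6 (103), Igfbp5 (89.0), Igfbp4 (79.6), Igfbp2 (40.04), Igfbp3 (25.9), Igf1 (7.01), Igf1r (2.0025) and Igf2 (0.67). In MCT libraries the values of Igfbp4 lay between those of Igfbp7 and all others without overlap, but those of Igfbp5, Igfbp6 and Igfbp2 overlapped, as did those of Igfbp2 and Igfbp3 and those of Igf1r and Igf2. In control libraries Igfbp6 overlapped with Igfbp5, Igfbp4, Igfbp2 and Igfbp3, Igfbp5 with Igfbp4, and Igfbp2 with Igfbp3. The order within those sets was not beyond their spread.

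The 7 binding protein genes together summed to 1300 to 1510 FPKM in MCT libraries and 1110 to 1438 FPKM in control libraries. Igfbp7 made up 71.1 ± 2.65% of that sum in MCT and 74.2 ± 5.07% in control (SD, n = 4 each). Igfbp4 made up 13.0%, 15.6%, 9.98% and 10.2% in MCT 1 to 4 and 6.25%, 6.17%, 5.84% and 6.40% in control 1 to 4. The Igfbp4 share was nearly constant among control libraries and higher in each MCT library, while the shares of Igfbp5 (4.32% to 7.13% in MCT, 4.33% to 8.63% in control) and Igfbp6 (3.24% to 8.84% in MCT, 3.18% to 12.6% in control) overlapped. Per unit of ligand transcript, binding protein transcripts came to 82.2 to 125 in MCT libraries and 107 to 267 in control libraries, an overlap set by control 4 (107) and MCT 3 and 4. These ratios were built from the members and were not tested.

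**Figure D3:**
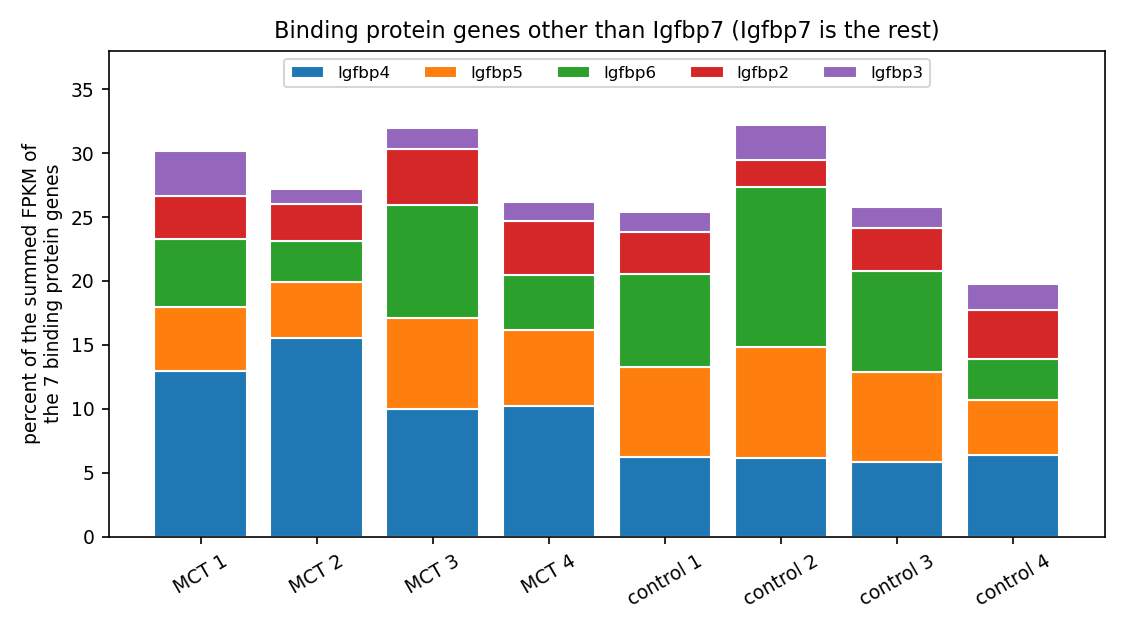
Percent of the summed FPKM of the 7 binding protein genes taken by each of 5 genes in each library, MCT left and control right, stacked; Igfbp7 is the rest and Igfbp1 was at 0. The Igfbp4 segment takes 9.98% to 15.6% in MCT libraries and 5.84% to 6.40% in control libraries.

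Among 12713 other tested genes with a symbol and a mean of at least 2 FPKM, those whose log2 CPM profile over the 8 libraries lay nearest to that of Igfbp4 were Snord104, Sec16b, Clmp, Medag and Cenpn. Their root-mean-square differences from the Igfbp4 profile were 0.156 to 0.175 on the log2 scale. Nearest to Igf1 were Frrs1, LOC690097, Il18, Dnajb3 and Chp2, at 0.185 to 0.262. Il18, the gene of an interleukin made by macrophages and epithelium, averaged 31.7 FPKM in MCT and 17.2 FPKM in control. Profiles were matched with the group difference included, so a higher level in MCT followed from how these nearest genes were picked. The lists of nearest genes did not overlap.

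Around the members, a list of 61 further genes of the pathway was examined, of which 58 were in the table and 55 were tested. In MCT lungs 10 were higher and 7 lower at an adjusted p under 0.05, a share of 30.9% against 20.5% of all genes, with a median log2 fold change of -0.058 against 0.026 over all genes. Without MCT 1 and control 1 the counts were 10 and 13. Of 20 genes in the PI3K, AKT and mTOR relay, 15 were not called and 1 was higher. The 4 lower ones included the 3 forkhead factors that AKT holds in check. Of 10 tested genes that cut binding proteins or act on such proteases, 5 were higher and 5 not called. The higher ones included Stc2, which encodes an inhibitor of PAPP-A.

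Among receptors and substrates, 2 of 7 were higher and 1 was lower, 42.9% called against 20.5% of all genes. Irs2, an adaptor between the receptors and PI3K, was at 7.43, 6.44, 5.79 and 5.38 FPKM in MCT 1 to 4 and 8.49, 9.14, 10.6 and 10.7 FPKM in control 1 to 4, and fell by 0.63 on the log2 scale (SE 0.12, edgeR adjusted p 0.00757). Igf2r, the mannose 6-phosphate receptor that clears IGF2, was at 26.6, 32.1, 33.4 and 32.4 FPKM in MCT 1 to 4 and 21.4, 26.4, 21.6 and 20.8 FPKM in control 1 to 4 (log2 fold change 0.46, edgeR adjusted p 0.0171). MCT 1 (26.6 FPKM) lay just above control 2 (26.4 FPKM), and the call was lost without MCT 2 or MCT 3 (adjusted p 0.0503 and 0.0512). Shc1, an adaptor towards the RAS pathway, averaged 66.1 ± 10.2 FPKM in MCT and 45.3 ± 2.96 FPKM in control (log2 fold change 0.54, adjusted p 0.0114). Insr, the insulin receptor gene, was at 2.54 ± 0.578 FPKM in MCT and 3.92 ± 0.980 FPKM in control and did not pass (-0.62, adjusted p 0.0668), but it passed with DESeq2 (adjusted p 0.0220), without MCT 1 (0.0475) and without MCT 1 and control 1 (0.0379).

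In the PI3K, AKT and mTOR relay, 1 of 20 genes was higher and 4 were lower. That was 25% called, near the 20.5% of all genes. Foxo3, which AKT keeps out of the nucleus when growth factors are present, was at 8.36, 14.1, 11.7 and 10.6 FPKM in MCT 1 to 4 and 18.8, 32.3, 23.5 and 29.1 FPKM in control 1 to 4. All MCT libraries lay below all control libraries, and the log2 fold change was -1.22 (SE 0.20, edgeR adjusted p 0.00367). Foxo1 averaged 6.58 ± 0.853 FPKM in MCT and 12.8 ± 2.53 FPKM in control (-0.96, SE 0.16, adjusted p 0.00388). Foxo4 averaged 17.9 ± 2.91 FPKM in MCT and 27.8 ± 4.50 FPKM in control (-0.63, SE 0.14, adjusted p 0.0116). All 3 kept their calls in the 19 alternatives. These factors are also expressed in endothelium, of whose markers 3 of 8 were lower in MCT and 5, Cdh5, Kdr, Tie1, Erg and Egfl7, were not called, and their part was not tested. Tsc1, a brake on mTOR, was lower too (-0.56, adjusted p 0.0341), a call lost in 8 of 19 alternatives, among them limma (adjusted p 0.0550), the fit without MCT 1 (0.0542) and those without MCT 2, MCT 3, control 2 or control 4 (0.0733 to 0.0938). Eif4ebp1, a translation repressor under mTOR, was higher (0.41, adjusted p 0.0285), and lost its call without MCT 2 (adjusted p 0.0860), MCT 3 (0.0657), control 1 (0.0543), or MCT 1 and control 1 (0.0602). The kinase genes Akt1 (0.18, adjusted p 0.0892), Akt2 (-0.096, adjusted p 0.332) and Mtor (-0.24, adjusted p 0.0720) did not pass. Akt1 and Mtor passed with DESeq2 (adjusted p 0.0430 and 0.0424), and Mtor also without control 1 (0.0306) or without MCT 1 and control 1 (0.0418).

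Of the genes that cut the binding proteins or regulate such proteases, 5 of 10 were higher and none lower at an adjusted p under 0.05, in edgeR, DESeq2 and limma alike, against 11% of all genes higher in edgeR. Macrophage (7 of 9) and fibroblast (4 of 8) markers were higher in the same libraries, and their part was not tested. At an unadjusted p under 0.05 there were 6 higher and 0 lower. Mmp2, gelatinase A, was at 101, 185, 156 and 156 FPKM in MCT 1 to 4 and 73.4, 67.7, 65.2 and 63.6 FPKM in control 1 to 4 (log2 fold change 1.14, SE 0.16, adjusted p 0.00183). Htra1, a secreted serine protease that cleaves IGFBP5, averaged 80.9 ± 11.3 FPKM in MCT and 48.6 ± 4.03 FPKM in control (0.73, adjusted p 0.0028). Adam12, which cleaves IGFBP3 and IGFBP5, was at 0.67, 2.33, 2.84 and 2.42 FPKM in MCT 1 to 4 and 0.45, 0.38, 0.40 and 0.39 FPKM in control 1 to 4, so MCT 1 stood close to the control libraries (2.33, SE 0.40, adjusted p 0.00423). With limma the Adam12 difference was 1.40 for log2(FPKM + 0.5) and 1.06 for log2(FPKM + 1), and it passed in both. Ctsd, the lysosomal protease cathepsin D, averaged 747 ± 128 FPKM in MCT and 409 ± 74.9 FPKM in control, and Stc2, an inhibitor of PAPP-A, averaged 6.97 ± 1.46 FPKM in MCT and 3.66 ± 0.910 FPKM in control. The Stc2 call was lost without MCT 4 (adjusted p 0.0552), without control 2 (0.0577) and with the replicate block (0.0565). Pappa2, a protease related to PAPP-A, was at 1.47 ± 0.481 FPKM in MCT and 1.29 ± 0.699 FPKM in control (adjusted p 0.834), and Igfals, the liver-made partner of the serum complex, was near 0 in both groups. Pappa itself had no row under that symbol in the table used here and was not analysed.

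**Figure D4:**
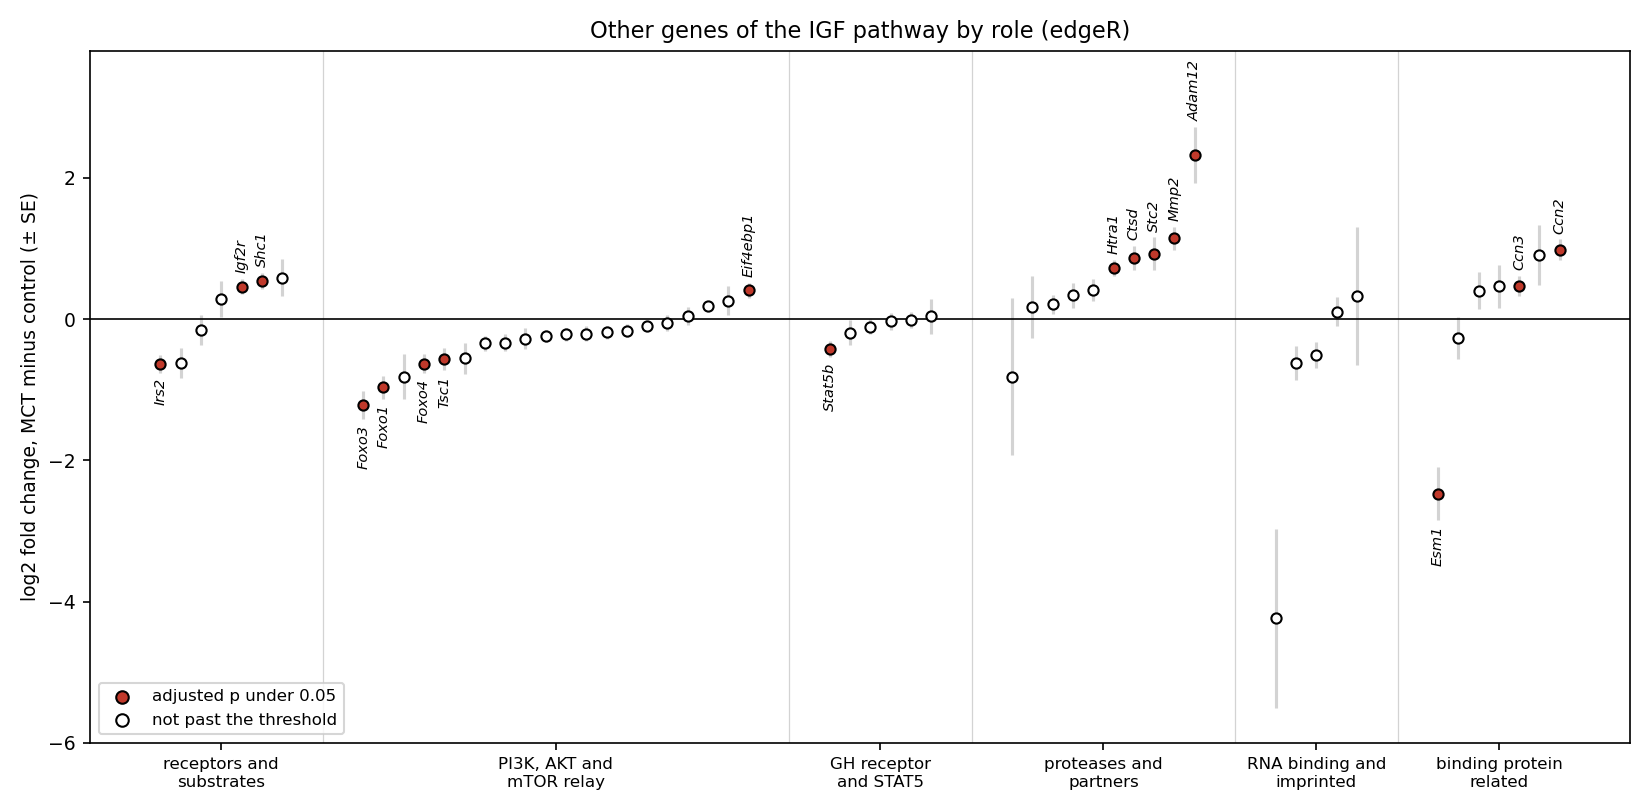
Log2 fold change with its SE for the 55 tested pathway genes outside the members, grouped by role and ordered by value within each; filled points passed an adjusted p under 0.05 and are named. Filled points are all above 0 among the proteases and partners, and Foxo3, Foxo1, Foxo4 and Tsc1 lie below 0 in the relay.

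Growth hormone receptor and STAT5 signalling drives Igf1 transcription in liver. Of the 6 tested genes listed under it, 16.7% were called, against 20.5% of all genes. There 1 was lower and none higher, also at an unadjusted p under 0.05 and with DESeq2 or limma. This was Stat5b, at 14.3 ± 2.10 FPKM in MCT and 19.2 ± 1.89 FPKM in control (log2 fold change -0.42, edgeR adjusted p 0.0307), a call lost when MCT 2, MCT 3, control 2, control 3 or control 4 was left out (adjusted p 0.0520 to 0.0829). Ghr, the receptor gene, was level at 11.8 ± 1.83 FPKM in MCT and 11.9 ± 1.21 FPKM in control (-0.014, SE 0.12), a difference that was above 0 without MCT 1 (0.046), MCT 2, control 4, or MCT 1 and control 1 (0.056). None of 5 tested RNA binding and imprinted partners passed in edgeR or limma, while 3 were lower at an unadjusted p under 0.05 and with DESeq2 after adjustment. The most abundant, Cdkn1c, which encodes a cell cycle inhibitor, was at 18.5 ± 4.79 FPKM in MCT and 28.7 ± 8.48 FPKM in control (-0.63, edgeR adjusted p 0.104). It passed with DESeq2 (adjusted p 0.0331), with the replicate block (0.0122), without control 2 (0.0407) and without MCT 1 (-0.81, adjusted p 0.0418), but not without MCT 1 and control 1 (0.0607). Among genes with an IGFBP-like domain and related proteins, 2 of 7 were higher and 1 was lower, 42.9% called against 20.5% of all genes. Ccn2, a matricellular growth factor, averaged 297 ± 41.3 FPKM in MCT and 150 ± 24.2 FPKM in control (0.98, adjusted p 0.00257). Esm1, the endothelial proteoglycan endocan, was at 1.04, 1.72, 1.97 and 0.51 FPKM in MCT 1 to 4 and 6.62, 8.48, 7.09 and 6.61 FPKM in control 1 to 4 (-2.47, SE 0.37, adjusted p 0.00249). Ccn3 was higher (0.47, adjusted p 0.0433), but in 8 of 19 alternatives it did not pass, among them the fits without control 1 (adjusted p 0.0964), without MCT 1 and control 1 (0.0723), and without MCT 2, 3 or 4 or control 3 or 4 (0.0619 to 0.113).

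**Figure D5:**
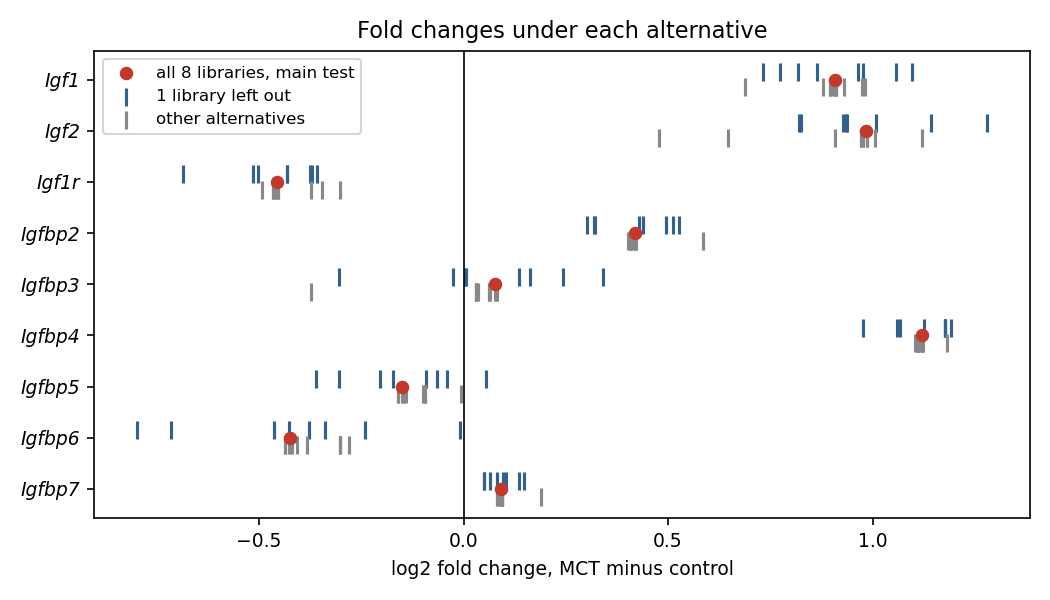
Log2 fold change, MCT minus control, of each tested member in all libraries (round points), with 1 library left out (upper ticks) and in the other alternatives (lower ticks). Igf1 and Igfbp4 stay to the right of 0 throughout (0.69 to 1.10 and 0.98 to 1.19), while Igfbp3 and Igfbp5 cross it.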

How the data were processed

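Lung RNA of 4 MCT and 4 control rat libraries was sequenced after oligo(dT) selection, per the labels' protocols. The authors used cutadapt 1.9, HISAT2 2.0.4, StringTie 1.3.4d and edgeR and the genome build Rnor_6.0. These names come from per-sample lists taken from the submitters' processing notes, without settings or order. The deposited table holds estimated counts (whole numbers, about 3.665 units per read pair from the spacing of low values) and FPKM values, per the file headers. For each member the ratio of count to FPKM deviated by at most 0.5% from its mean after scaling, so transcripts of a gene could not be told apart. Strand use in counting and the treatment of reads shared between genes are not given in the sources used here.

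Counts were rounded, which changed no value, filtered with filterByExpr (minimum count 10), scaled by TMM and tested with edgeR 4.0.16 (quasi-likelihood, robust, R 4.3.3), two-sided, with Benjamini-Hochberg adjustment over 16715 genes. Alternatives used limma 3.58.1 on log2(FPKM + 0.5) and with pseudocounts of 0.1 and 1, DESeq2 1.42.0, other filters and scalings, counts per read pair, a replicate block and libraries left out. Levels are mean ± SD of FPKM, and fold changes are on the log2 scale, MCT minus control, and intervals are at 95%. No libraries of a group were duplicates (chi-square per gene of 14.4 or more).

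The members and lists were chosen with earlier results of these data known. Named genes were all members and, per pathway role, up to 3 called genes with the smallest p, or the most abundant tested gene where none was called. Ctsd, Stc2, Tsc1, Eif4ebp1, Insr, Akt1, Akt2, Mtor, Pappa2, Igfals, Ghr, Dlk1, Igf2bp2 and Igf2bp3 were added after their values were seen.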

Additional observations from a re-analysis of the deposited data

Results flagged for a closer look

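In 72 groups of 4 libraries examined for the named genes, 1 library lay far from the other 3 in 6 cases, against about 3.6 by chance. Dividing the distance between that library and its nearest neighbour by the whole range of its group, in log2 CPM, gave 0.867 for Igfbp3 in control, where control 2 was at 38.5 FPKM and the others at 20.2 to 22.5 FPKM, and 0.836 for Igf2bp2 in control, where control 2 was at 5.48 FPKM and the others at 4.13 to 4.45 FPKM. In the MCT group this ratio was 0.888 for Igf2r, 0.898 for Htra1, 0.870 for Adam12 and 0.899 for Igf2bp3, each time because MCT 1 was low. MCT 1 was at 26.6 FPKM for Igf2r against 32.1 to 33.4 FPKM in the other MCT libraries, at 64.0 FPKM for Htra1 against 86.1 to 87.2 FPKM, at 0.67 FPKM for Adam12 against 2.33 to 2.84 FPKM, and listed at 0 for Igf2bp3 against 0.13 to 0.18 FPKM. In the same library macrophage markers summed to 539 FPKM, against 732 to 964 FPKM in MCT 2 to 4, and fibroblast markers to 1176 FPKM, against 1463 to 1873 FPKM. Cardiac myocyte markers were instead higher there, at 96.5 FPKM against 25.8 to 51.2 FPKM, as were ciliated cell markers, at 728 FPKM against 356 to 557 FPKM. Their part in these values was not tested.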

How the results depend on the processing

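Of 680 recomputed fold changes of named genes, 606 kept their direction and side of the threshold, 38 lost a call, 26 gained one and 10 turned round. Those that turned round were Pappa2 without MCT 3 (-0.0015) and control 4 (-0.12), Ghr without MCT 1 (0.046), MCT 2 (0.043), control 4 (0.027) and MCT 1 and control 1 (0.056), Igfbp3 without MCT 1 (-0.30), without control 3 (-0.025) and without MCT 1 and control 1 (-0.37), and Igfbp5 without control 2 (0.055), none of them called. With 1 library left out Igfbp3 ran from -0.30 to 0.34 and Igfbp5 from -0.36 to 0.055, Ghr from -0.093 to 0.046 and Pappa2 from -0.12 to 0.50. The number of members higher, 2 in all libraries, was 1 with no filter and 1 when a change of 1 or more in size on the log2 scale was also required, a rule added after seeing the data. It was 3 with DESeq2, the stricter filter, counts per read pair or the replicate block, as Igf2 joined. With 1 library left out it was 1 to 2, the number lower was 0 to 1, the pathway counts were 7 to 11 higher and 5 to 10 lower, and all genes gave 1191 to 1946 higher and 975 to 1730 lower, the fewest without MCT 2. Pathway genes lower numbered 13 with DESeq2 and 13 without MCT 1 and control 1. The replicate numbers are no stated pairing: deviations of same-numbered libraries correlated across genes at -0.085 to 0.11, and not every library correlated best with its own number. The replicate block gave 1436 higher and 1271 lower genes, and Igf2 at 1.01 (adjusted p 0.0401). The cause of these shifts was not tested. Counts were low for Igf2 and Igf1r, with 330 to 420 and 208 to 431 count units per MCT library and 126 to 335 and 299 to 491 per control library. Their SEs (0.31 and 0.22) were nevertheless below those of Igfbp6 (0.50) and Igfbp3 (0.34), which had more counts in every library. The part of depth in these errors was not tested.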

Other observations

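Dlk1, an imprinted gene of fetal mesenchyme listed with the IGF partners, was at 0.13, 2.42, 1.76 and 0.62 FPKM in MCT 1 to 4 and 68.7, 5.39, 2.04 and 17.5 FPKM in control 1 to 4. Its log2 fold change of -4.24 had an SE of 1.27 and an edgeR adjusted p of 0.0517, and control 1 alone supplied most of the control sum. Without control 1 the Dlk1 difference was -2.74 (adjusted p 0.0997), while in all libraries DESeq2 gave an adjusted p of 0.0019. Igf2bp3, an IGF2 mRNA binding protein of fetal tissue, was at 0.11 ± 0.077 FPKM in MCT and 0.0825 ± 0.0723 FPKM in control (SD, n = 4 each), and Igf2bp2 was at 3.22 ± 0.707 FPKM in MCT and 4.58 ± 0.614 FPKM in control (adjusted p 0.0798). Igf2bp2 passed with DESeq2 (adjusted p 0.0324), without MCT 1 (0.0159) and without MCT 1 and control 1 (0.0219).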
